A study of Mus musculus with 24 samples.

Results

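The hippocampus of female mice lacking brain aromatase was compared between old and young animals, to ask which transcripts differed with age once the brain's own estrogen synthesis had been deleted. The libraries were chosen by their labels alone, the 3 of old (24 months) and the 3 of young (6 months) female *bArKO* mice, and made up 6 of the 24 bulk RNA-seq libraries of the study. The study profiled the hippocampus of old and young mice of both sexes, either *bArKO* or control, with 3 mice in each of 8 groups. All mice had a C57BL/6J background. *bArKO* mice carried a floxed aromatase gene (*Arom* fl/fl) and a *Nestin-Cre* transgene, and littermate controls carried *Arom* fl/fl without Cre. All 6 mice compared here thus shared the deletion, so that the comparison varied age and not genotype. *Nestin-Cre* acts in neural progenitors and their descendants (neurons, astrocytes and oligodendrocytes), whereas microglia descend from another lineage and the ovary lies outside its main reach. The labels gave 24 months for the old mice, while the design text of the series gave a younger age, and the labels were followed here. The column names of all 3 old libraries carried a second number of unstated meaning and those of the young libraries none, so that whatever it stands for cannot be told apart from age.

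Aromatase converts androgens to estrogens, and in the brain it is made by neurons and astrocytes. With age, hippocampal microglia and astrocytes are known to turn on genes of the complement cascade, of the lysosome and of antigen presentation. The TREM2-TYROBP receptor pair takes part in a program called disease-associated microglia (DAM). Complement proteins tag synapses for removal by microglia, and estrogens are known to dampen glial activation.

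Total counts were 13610102, 9195411 and 8196485 in young replicates 1, 2 and 3 and 18872054, 13113858 and 12672623 in old replicates 1, 2 and 3. Levels are given as CPM, which are counts divided by the library's total and its TMM factor, and a gene with 0 counts can be held below 0.366 CPM in the shallowest of these libraries, taking 3 counts as the floor and counting error alone. Aromatase (*Cyp19a1*) itself had 1, 0 and 0 counts in the young and 3, 2 and 3 counts in the old libraries, and at most 3 counts in any of the 24 libraries. Its deletion could therefore not be checked at this depth. *Xist*, the X-inactivation transcript of females, was at 662, 579 and 502 CPM in young and 605, 770 and 708 CPM in old mice, and the Y-linked *Ddx3y* had at most 2 counts. The regional markers of dentate gyrus (*Prox1*, 105 to 177 CPM, and *C1ql2*, 107 to 147 CPM) and of CA1 (*Wfs1*, 121 to 215 CPM, and *Fibcd1*, 127 to 186 CPM) were present in every library, as were *Spink8* (20.4 to 41.3 CPM) and *Neurod6* (151 to 219 CPM).

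Old replicate 2 stood apart in genes of tissues that border the hippocampus. The summed level of 15 pineal gland genes was 10.8, 10.1 and 11.6 CPM in young and 28.0, 157 and 14.2 CPM in old mice, and 14 of the 15 were highest in old replicate 2, while *Gngt1* had 0 counts in all 6 libraries. *Tph1*, which makes the serotonin that the pineal gland turns into melatonin, was the most abundant of them by CPM and *Rom1* per kilobase. *Tph1* was at 0.450, 0.109 and 0.244 CPM in young and 4.18, 43.0 and 0.538 CPM in old mice. Of these 15 genes 7 were tested and 0 were DEGs in edgeR's quasi-likelihood test (7 at an unadjusted p below 0.05, 3 DEGs by DESeq2 on all 24 libraries, and 6 by edgeR without old replicate 3), with a median log2 fold change of 2.24, or 0.85 without old replicate 2. Over all genes DESeq2 on all 24 libraries called 43 of 57186, and edgeR without old replicate 3 called 50 of 15946. Choroid plexus genes, led by the thyroxine carrier *Ttr*, summed to 78.2, 236 and 1786 CPM in young and 107, 3294 and 246 CPM in old mice, and all 15 were highest in old replicate 2. Young replicate 3 stood above the other young libraries and above old replicates 1 and 3 as well. Their median log2 fold change was 0.70, but -1.55 without old replicate 2 and 2.48 without young replicate 3, with 0.28 to 1.21 on leaving out any other library, and 0 of 15 were DEGs in edgeR on all libraries, with 0 at an unadjusted p below 0.05. The sums of habenula and thalamus genes, whose most abundant member per kilobase was *Plekhg1*, overlapped between ages (207 to 261 CPM in young and 207 to 265 CPM in old mice). Genes of leptomeningeal fibroblasts, the cells of the membranes around the brain, summed to 334, 385 and 405 CPM in young and 560, 598 and 623 CPM in old mice, and 17 of 22 were highest in old replicate 3. Their most abundant member was *Apod*, which oligodendrocytes and astrocytes also express, and without it the sums were 183, 232 and 243 CPM against 260, 285 and 375 CPM. Because of the pineal and choroid plexus genes, the calls without old replicate 2 are given for each DEG and each list with a DEG below.

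**Figure D1:**
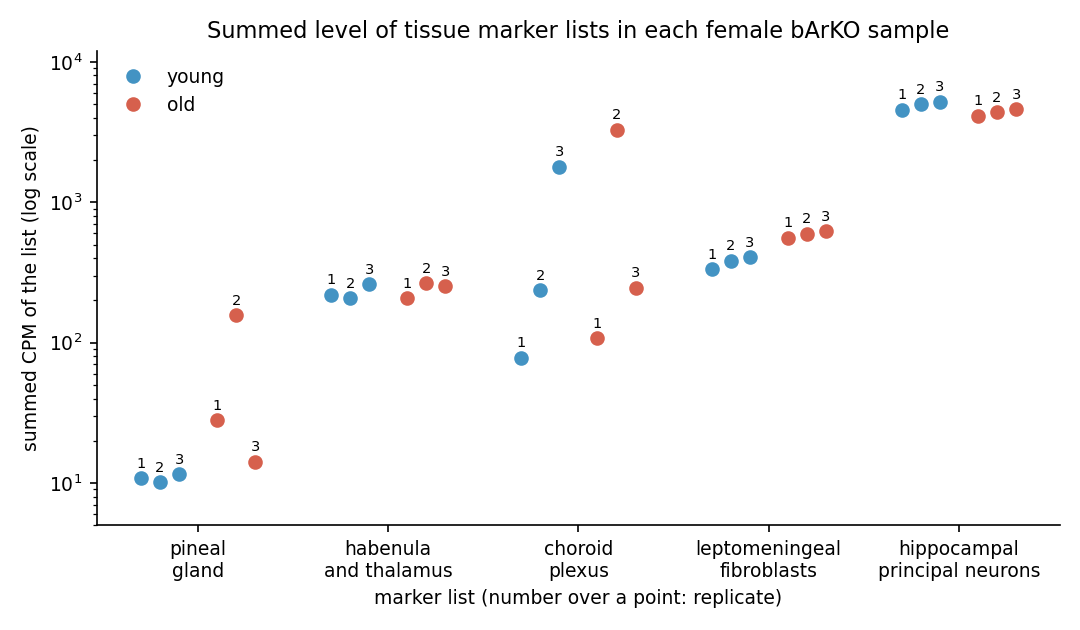
Summed CPM (log scale) of 5 marker lists in each young (blue) and old (red) female *bArKO* library, with the replicate number over each point. Old replicate 2 lies highest for pineal gland (157 CPM) and choroid plexus (3294 CPM) genes, and all 3 old libraries lie above all 3 young libraries for leptomeningeal genes.

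Of 15693 genes put to edgeR's quasi-likelihood test, 23 were DEGs, 22 of them higher and 1 lower in old than in young female *bArKO* mice. A gene was called a DEG when its log2 fold change exceeded 0.5 in size and its Benjamini-Hochberg adjusted p fell below 0.05. The count depended on the fit: DESeq2 gave 43 DEGs on all 24 libraries and 87 on the 6 female *bArKO* libraries, and edgeR gave 6 on the 12 female libraries and 232 on every gene with at least 1 count. The 23 DEGs made up 0.147% of the genes tested, 0.14% for the higher and 0.00637% for the lower direction. At an unadjusted p below 0.05 there were 1179 genes, where 784.65 are due by chance, 745 of them higher and 434 lower in old mice. The median log2 fold change over all genes tested was 0.00, and 51% of genes had a positive value. Of all genes tested, 8.83% had all old libraries above all young ones and 7.32% had them all below. By adjusted p the higher DEGs began with *C4b*, *Lyz2*, ENSMUSG00000095041, *Ctss* and *Gfap*, and by fold change with *Klk6*, *Clec7a* and *Cxcl16*. Of the 23 DEGs, 19 belonged to the gene lists described below. Those lists held 738 different genes and were chosen with earlier results of these data known, so this count tests nothing.

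**Figure D2:**
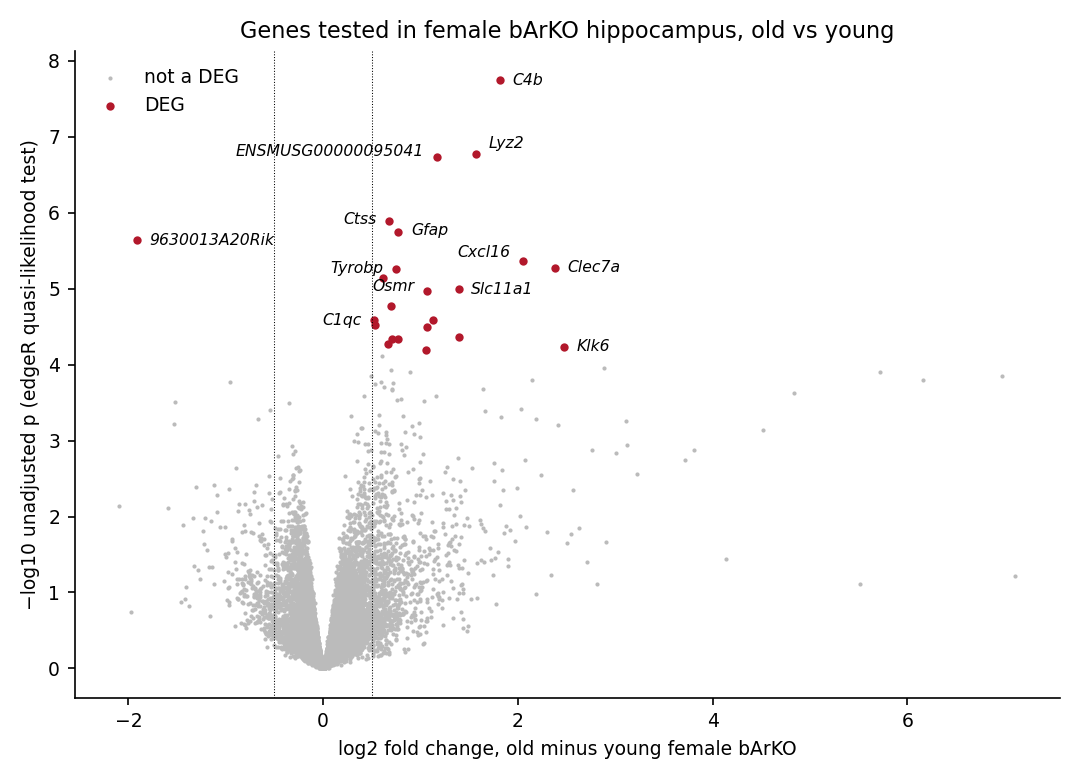
Log2 fold change of old over young female *bArKO* mice (horizontal axis) against -log10 of the unadjusted p from edgeR's quasi-likelihood test (vertical axis) for the 15693 genes tested. The 23 DEGs are red, 22 to the right and *9630013A20Rik* alone to the left, and dotted lines mark log2 fold changes of 0.5 in size.

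The number of DEGs changed when any 1 library was left out. Each such fit has fewer mice on 1 side, and how much of the change came from that was not tested. Without old replicate 1, 2 or 3 edgeR gave 3, 7 and 50 DEGs, and without young replicate 1, 2 or 3 it gave 8, 4 and 7. *C4b*, *Lyz2* and a transcript without annotation (ENSMUSG00000095041) were DEGs in each of these 6 fits, *Ctss* and *9630013A20Rik* in 4, and *Gfap*, *Cxcl16*, *Clec7a*, *Tyrobp* and *Ctsz* in 2. The other 13 DEGs were called in a single one of them, the fit without old replicate 3. Old replicate 3 had the lowest value of the old libraries for 19 of the 22 higher DEGs, old replicate 1 had the highest for 13 and old replicate 2 for 9. Without old replicate 2, the DEGs that passed again were *C4b*, *Lyz2*, ENSMUSG00000095041, *Ctss* and *9630013A20Rik*. The other 18 kept log2 fold changes of 0.48 (*C1qc*) to 2.23 (*Clec7a*) without it. Their edgeR adjusted p was then 0.0539 for *Cxcl16*, *Osmr* and *Lsp1*, 0.0617 for *Gfap* and *Clec7a*, 0.0658 for *Tyrobp*, 0.0659 for *Ctsz* and 0.0675 for *Ctsh* and *Ccl6*. It was 0.0878 for *Slc11a1*, 0.164 for *C1qc* and *Anxa5*, 0.175 for *C3ar1*, 0.184 for *Fcgr2b*, 0.188 for *Trem2* and *C1qb*, 0.200 for *Gpr34* and 0.283 for *Klk6* (edgeR adjusted p). All 23 DEGs kept their sign in these 6 fits.

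**Figure D3:**
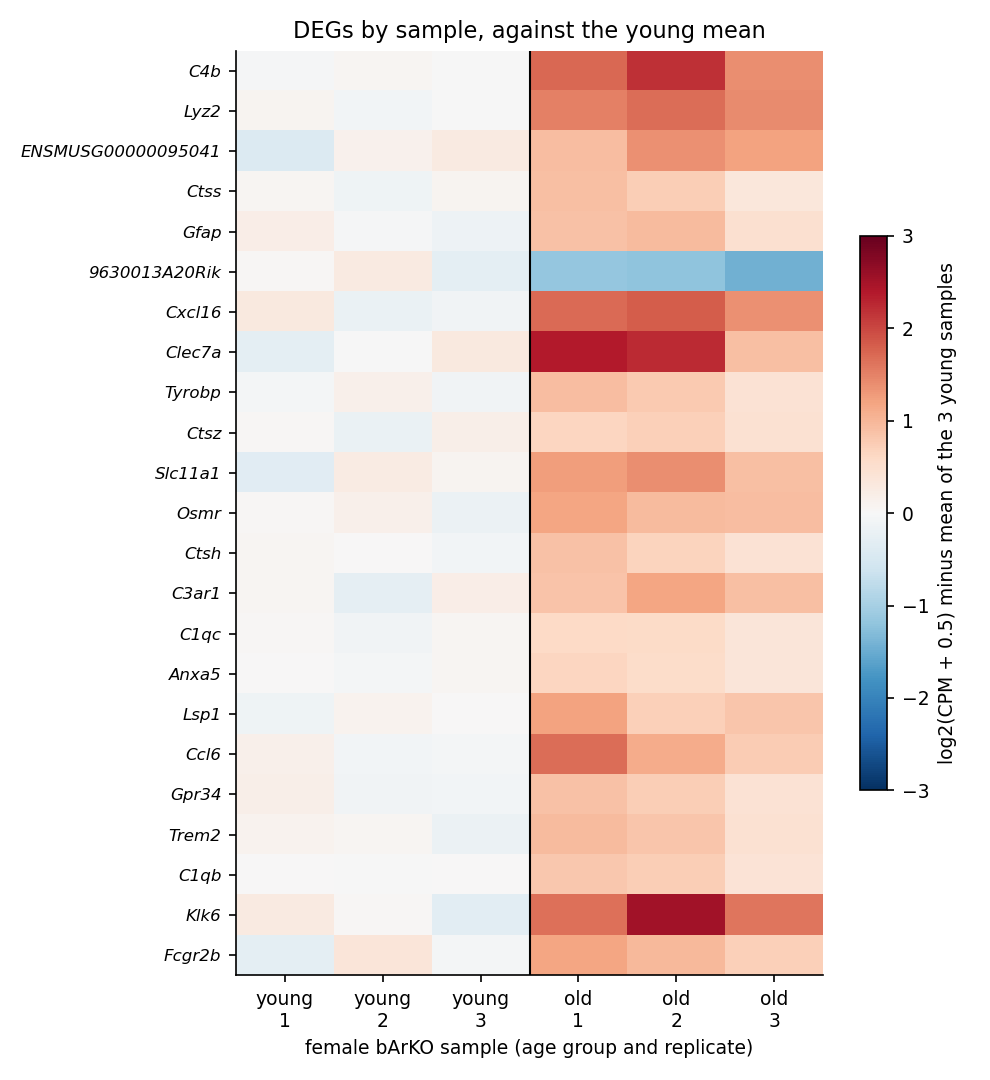
Difference of each library from the mean of the 3 young libraries, on the scale log2(CPM + 0.5), for the 23 DEGs (rows, ordered by adjusted p) in young and old female *bArKO* replicates (columns). Red is higher and blue lower than the young mean, and in the old columns replicate 3 is the palest for most genes.

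Complement genes held the strongest call. The list of 26 complement components, receptors and regulators had 22 members tested, of which 4 were DEGs, all higher in old mice (*C4b*, *C3ar1*, *C1qb* and *C1qc*), against 0.14% of all genes tested. Without old replicate 3 the count was 5, and without any other library it was 1 (*C4b*). The median log2 fold change of the tested members was 0.48, against 0.00 for all genes, and in 12 of the 22 all old libraries exceeded all young ones (8.83% of all genes). *C4b* (ENSMUSG00000073418, chr17:34947354-34962912 of GRCm39, minus strand) encodes complement C4, which is split after C1q binds its target. It was at 40.2, 42.7 and 40.8 CPM in young and 136, 190 and 109 CPM in old mice. The groups did not overlap, the young libraries lay close together, and old replicate 2 was highest. This was a log2 fold change of 1.82 (adjusted p = 0.000281 in edgeR's quasi-likelihood test, standard error 0.21), and it was 1.57 without old replicate 2 (edgeR adjusted p = 0.00434). The near-identical copy *C4a* had 4 to 16 counts against 334 to 2574 for *C4b*, and reads that fit both copies cannot be told apart. The chains of C1q, which opens the classical pathway and comes mainly from microglia in the brain, had smaller fold changes. *C1qb* was at 59.6, 58.7 and 59.3 CPM in young and 104, 98.4 and 79.0 CPM in old mice, and *C1qc* at 59.3, 54.2 and 61.0 CPM and 87.8, 87.1 and 75.2 CPM. Neither gene's groups overlapped. The log2 fold changes of *C1qb* and *C1qc* were 0.67 and 0.52 (edgeR adjusted p = 0.0395 and 0.0274), while the neighbouring *C1qa* had 0.49 and missed the thresholds (edgeR adjusted p = 0.0743). *C3ar1*, the receptor for the C3a fragment, was at 2.17, 1.63 and 2.44 CPM in young and 4.13, 5.28 and 4.30 CPM in old mice, a log2 fold change of 1.13 (edgeR adjusted p = 0.0274). Its ligand's parent *C3* was at 2.85, 1.96 and 3.17 CPM in young and 4.40, 18.7 and 5.92 CPM in old mice. Its groups did not overlap, old replicate 2 stood far above the rest, and it was not a DEG (log2 fold change 1.84, or 0.94 without old replicate 2, edgeR adjusted p = 0.316 and 0.885). The most abundant complement gene, the regulator clusterin (*Clu*), had a log2 fold change of 0.14 (0.08 to 0.22 over the alternative fits). The members left untested for low counts were *C1s2*, *Cfb*, *Cfd* and *Cfi*.

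The DAM list holds genes that microglia turn on near damage. It had 31 of its 32 members tested and 6 DEGs, all higher in old mice (*Lyz2*, *Clec7a*, *Tyrobp*, *Ctsz*, *Ccl6* and *Trem2*), against 0.14% of all genes. Without old replicate 1, 2 or 3 the count was 1, 1 and 8, and without young replicate 1, 2 or 3 it was 1, 2 and 3. Its median log2 fold change was 0.54, or 0.33 without old replicate 2, when *Lyz2* alone was called. *Lyz2* (ENSMUSG00000069516), the lysozyme of myeloid cells, was at 11.7, 10.3 and 11 CPM in young and 32.1, 35.9 and 30.4 CPM in old mice. The groups lay far apart and each varied little, and the log2 fold change was 1.57 (edgeR adjusted p = 0.000974, standard error 0.21). *Clec7a*, the receptor dectin-1, was at 0.899, 1.20 and 1.59 CPM in young and 8.42, 7.58 and 2.69 CPM in old mice. The old libraries were uneven, with replicate 3 closest to the young ones, and the log2 fold change was 2.38 (edgeR adjusted p = 0.00946, standard error 0.40). *Trem2*, a lipid-sensing receptor, was at 15.4, 15 and 12.6 CPM in young and 28.0, 25.6 and 19.8 CPM in old mice. *Tyrobp*, the adaptor through which TREM2 signals, was at 17.9, 21.1 and 17.6 CPM in young and 36.0, 32.7 and 25.8 CPM in old mice. Neither gene's groups overlapped, and the pair had nearly equal log2 fold changes of 0.77 (edgeR adjusted p = 0.0361) and 0.74 (edgeR adjusted p = 0.00946). The integrin *Itgax* (CD11c) was at 0.225, 0.109 and 0.610 CPM in young and 2.17, 3.14 and 1.46 CPM in old mice. Its groups did not overlap either, yet it fell just outside the thresholds with a log2 fold change of 2.88 (edgeR adjusted p = 0.0695). The cystatin *Cst7*, a further DAM gene, had 2.41 (edgeR adjusted p = 0.159). *Fth1*, the ferritin heavy chain, was the most abundant member and had a log2 fold change of 0.33.

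Genes that mark resting microglia were also on the higher side in old mice. Of 20 homeostatic microglia genes 19 were tested, 2 were DEGs (*Ctss* and *Gpr34*, against 0.14% of all genes) and all 19 had positive log2 fold changes, with a median of 0.35. Without old replicate 1, 2 or 3 the count was 0, 1 and 4, and without young replicate 1, 2 or 3 it was 1, 0 and 1. Their summed level was 1165, 1052 and 1063 CPM in young and 1537, 1458 and 1265 CPM in old mice, and *Sparc*, which vessels and astrocytes express too, was the most abundant. More microglia and more RNA per microglial cell cannot be told apart in bulk tissue, here or for the lists above. Its members ranged widely: the lysophosphatidylserine receptor *Gpr34* had a log2 fold change of 0.70 (edgeR adjusted p = 0.0361), the fractalkine receptor *Cx3cr1* of 0.31 (edgeR adjusted p = 0.591) and the purinergic receptor *P2ry12* of 0.09 (edgeR adjusted p = 0.911). *P2ry12* was at 53.0, 49.9 and 52.9 CPM in young and 63.2, 53.0 and 49.2 CPM in old mice, so its groups overlapped. The list of Fc receptors and their ITAM signalling partners had 14 of 15 members tested, 2 DEGs (*Tyrobp* and *Fcgr2b*, against 0.14% of all genes) and a median log2 fold change of 0.51, with all 14 values positive. *Fcgr2b*, the inhibitory IgG receptor, was at 2.92, 4.89 and 3.54 CPM in young and 9.06, 7.81 and 6.46 CPM in old mice, a log2 fold change of 1.06 (edgeR adjusted p = 0.0434). *Fcgr3*, the activating receptor, had 0.53 and was not a DEG. The count of this list was 3 without old replicate 3, 1 without young replicate 2 and 0 in edgeR without any other library, old replicate 2 included.

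Of 44 lysosomal genes all were tested, 4 were DEGs (*Ctss*, *Ctsz*, *Slc11a1* and *Ctsh*, against 0.14% of all genes), 40 had positive values and 24 had all old libraries above all young ones (8.83% of all genes), with a median log2 fold change of 0.18. Without old replicate 1, 2 or 3 the count of DEGs was 0, 1 and 6, and without young replicate 1, 2 or 3 it was 1, 0 and 2. *Ctss* (ENSMUSG00000038642), cathepsin S of microglia, was at 106, 93.5 and 108 CPM in young and 191, 171 and 130 CPM in old mice. Its groups did not overlap and its log2 fold change was 0.68 (edgeR adjusted p = 0.00509, standard error 0.10), with 0.65 and an edgeR adjusted p of 0.0491 without old replicate 2. *Ctsz* and *Ctsh*, further cysteine cathepsins, had log2 fold changes of 0.62 and 0.69 (edgeR adjusted p = 0.0113 and 0.0203). *Slc11a1*, the phagosomal metal pump NRAMP1, was at 1.5, 2.5 and 2.20 CPM in young and 5.56, 6.20 and 4.23 CPM in old mice, a log2 fold change of 1.39 (edgeR adjusted p = 0.0140). *Psap*, the most abundant lysosomal gene, was not a DEG. In the list of 25 amyloid and tau genes, all tested, *Trem2* was the 1 DEG (against 0.14% of all genes), called without old replicate 3 but not without old replicate 2 or any other library. The median was 0.03 (0.01 without old replicate 2, 0.07 without old replicate 3 and 0.06 without young replicate 2), with *Apoe*, the most abundant, at 0.30.

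Short motifs were searched for in the promoters of the DEGs, microglial or not. The 4 windows printed below are of microglial DEGs, and each holds a match to the first motif. Windows without a match to it are not printed. PU.1, encoded by *Spi1*, is the factor that sets the myeloid program, and *Spi1* was at 4.72, 5.22 and 3.91 CPM in young and 6.99, 7.58 and 5.69 CPM in old mice. It was not a DEG (log2 fold change 0.55, edgeR adjusted p = 0.560). RefSeq windows of 300 bases (250 before to 50 after the start of the gene, from GRCm38.p6) were on hand for 16 of the 22 DEGs with a symbol, and *C4b*, *Cxcl16*, *Tyrobp*, *Ctsh*, *Lsp1* and *Gpr34* had none. The core AGGAAGT bound by PU.1 and other ETS factors, read on both strands, was in 6 of the 16 (*C1qb*, *C1qc*, *Ccl6*, *Ctss*, *Gfap* and *Lyz2*) and in 9.35% of 32851 promoters of that length. The letters were chosen after the expression values had been seen, and a match describes letters and not a bound site. Exact matches of the windows to GRCm39 placed *Lyz2* at chr10:117118128-117118427 (minus strand), *Ctss* at chr3:95433847-95434146 (plus strand), *C1qb* at chr4:136613462-136613761 (minus strand) and *C1qc* at chr4:136620176-136620475 (minus strand). The RefSeq start used here lay 169, 134, 0 and 151 bases downstream of the GENCODE gene start for *Lyz2*, *Ctss*, *C1qb* and *C1qc*. The matches of *Lyz2* and *Ctss* thus lie inside the GENCODE gene, and those of *C1qb* and *C1qc* before its start. Capitals mark the match to AGGAAGT, which in all 4 windows lies on the opposite strand and so reads ACTTCCT.
Lyz2: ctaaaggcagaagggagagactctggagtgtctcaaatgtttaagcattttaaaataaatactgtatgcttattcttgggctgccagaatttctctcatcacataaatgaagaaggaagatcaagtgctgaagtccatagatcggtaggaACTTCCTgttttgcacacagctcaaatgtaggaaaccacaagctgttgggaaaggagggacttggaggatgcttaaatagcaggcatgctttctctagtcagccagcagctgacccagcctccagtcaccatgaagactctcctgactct
Ctss: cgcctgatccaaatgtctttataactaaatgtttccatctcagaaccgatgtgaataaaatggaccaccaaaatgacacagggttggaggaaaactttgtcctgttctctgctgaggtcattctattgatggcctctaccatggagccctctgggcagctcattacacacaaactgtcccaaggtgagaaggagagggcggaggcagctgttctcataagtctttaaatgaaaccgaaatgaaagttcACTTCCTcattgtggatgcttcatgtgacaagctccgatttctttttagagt
C1qb: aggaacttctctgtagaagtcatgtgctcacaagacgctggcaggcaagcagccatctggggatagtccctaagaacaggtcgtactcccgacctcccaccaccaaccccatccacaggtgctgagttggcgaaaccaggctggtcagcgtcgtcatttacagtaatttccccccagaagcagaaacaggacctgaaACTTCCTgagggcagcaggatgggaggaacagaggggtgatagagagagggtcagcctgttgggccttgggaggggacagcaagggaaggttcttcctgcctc
C1qc: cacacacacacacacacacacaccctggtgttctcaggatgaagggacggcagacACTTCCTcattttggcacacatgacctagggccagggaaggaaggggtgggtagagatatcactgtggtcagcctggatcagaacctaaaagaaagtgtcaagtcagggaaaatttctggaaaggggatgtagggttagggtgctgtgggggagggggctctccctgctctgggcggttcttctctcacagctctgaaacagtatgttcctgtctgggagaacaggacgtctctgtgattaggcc
The interferon-stimulated element (GAAA, any 2 bases, GAAA), read on both strands, was in 1 of the 16 (*Ctss*, starting at base 230 of the window and so before the capitals) and in 3.44% of all promoters. The STAT motif TTCNNNGAA was in 1 (*Gfap*, where it overlapped AGGAAGT) and in 8.3% of all. The AP-1 motif TGANTCA was in 3 (*C3ar1*, *Osmr* and *Trem2*) and in 7.81%, and CACGTG, carried by many lysosomal promoters, was in 0 and in 7.15%.

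Of 24 cytokines and chemokines 15 were tested and 2 were DEGs, *Cxcl16* and *Ccl6* (against 0.14% of all genes), with a list median of 0.29, and the 9 members left untested for low counts included *Il1b*, *Il6* and *Tnf*. The count of DEGs was 2 without old replicate 3, 1 without young replicate 1 and 0 in edgeR without any other library, old replicate 2 included. *Cxcl16*, a membrane-bound chemokine and scavenger receptor, was at 1.12, 0.652 and 0.732 CPM in young and 3.76, 4.13 and 2.92 CPM in old mice. The groups lay well apart, with a log2 fold change of 2.05 (edgeR adjusted p = 0.00946, standard error 0.34), though counts were low (6 to 15 in young and 38 to 71 in old mice). *Ccl6* was at 2.62, 2.17 and 2.20 CPM in young and 8.58, 5.59 and 4.30 CPM in old mice, a log2 fold change of 1.40 (edgeR adjusted p = 0.0361). *Cx3cl1*, the neuronal ligand of CX3CR1 and the most abundant chemokine gene, was not a DEG.

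Among 26 reactive astrocyte genes 23 were tested and 2 were DEGs, *Gfap* and *Osmr* (against 0.14% of all genes), with a median log2 fold change of 0.53, while the 16 genes that mark astrocytes in general had 0 DEGs in edgeR, 1 at an unadjusted p below 0.05 and a median of 0.05 (0.01 without young replicate 2 to 0.10 without young replicate 1). The reactive list had 3 DEGs without old replicate 3, 1 without young replicate 1 and 0 in edgeR without any other library, old replicate 2 included. *Gfap* (ENSMUSG00000020932), the intermediate filament of astrocytes, was at 805, 688 and 630 CPM in young and 1289, 1354 and 986 CPM in old mice. Every old library lay above every young one, and the log2 fold change was 0.77 (edgeR adjusted p = 0.00567, standard error 0.12), or 0.68 without old replicate 2 (edgeR adjusted p = 0.0617). *Osmr*, the oncostatin M receptor, was at 7.87, 8.59 and 6.83 CPM in young and 18.3, 15.5 and 15.1 CPM in old mice. It had a log2 fold change of 1.07 (edgeR adjusted p = 0.0140). Vimentin (*Vim*), the partner filament of GFAP, was at 49.1, 46.9 and 48.2 CPM in young and 70.6, 87.2 and 65.4 CPM in old mice. Its groups did not overlap, but at a log2 fold change of 0.63 it missed the thresholds (edgeR adjusted p = 0.0824). *Glul*, the most abundant astrocyte gene per kilobase, was not a DEG.

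Antigen presentation genes were mostly on the higher side without passing the test. None of the 20 MHC class I genes tested (of 22) was a DEG in edgeR's quasi-likelihood test, though 6 reached an unadjusted p below 0.05, and the median was 0.29. Each of the 20 had a positive log2 fold change. The heavy chain *H2-K1* was at 27.1, 29.1 and 37.4 CPM in young and 50.9, 54.0 and 46.6 CPM in old mice (log2 fold change 0.70, edgeR adjusted p = 0.0842). Beta-2-microglobulin (*B2m*), its light chain, was at 84.1, 87.2 and 112 CPM in young and 145, 142 and 118 CPM in old mice (log2 fold change 0.52, edgeR adjusted p = 0.372). Neither had overlapping groups. MHC class II had 9 of 10 members tested and *Ctss*, which degrades the invariant chain, was its 1 DEG (against 0.14% of all genes), called without old replicate 2 but not without old replicate 1 or young replicate 2, while the median was 0.82. On the 6 female *bArKO* libraries alone edgeR called 4 and DESeq2 5 of these genes, and edgeR on every gene with at least 1 count called 5, with *Cd74* and *H2-Eb1* called in each of these fits. Over all genes these fits called 41 of 15045, 87 of 57186 and 232 of 34066. On the 12 female libraries edgeR called 0 MHC class II genes. The invariant chain *Cd74* was at 2.40, 1.85 and 5.74 CPM in young and 12.2, 12.2 and 9.61 CPM in old mice. Despite a log2 fold change of 1.81 it was not a DEG in the fit of all 24 libraries (edgeR adjusted p = 0.427), and *H2-Eb1* had 1.84 (edgeR adjusted p = 0.372). In the interferon response list 32 of 34 members were tested and 0 were DEGs in edgeR's quasi-likelihood test, 4 having an unadjusted p below 0.05. All 32 had positive values, with a median of 0.52 (0.34 without young replicate 1), and in 11 all old libraries exceeded all young ones (8.83% of all genes). *Cxcl10*, a T cell attractant induced by interferon, was at 0.150, 0.435 and 0.244 CPM in young and 1.48, 2.68 and 0.922 CPM in old mice, with 2 to 4 counts in the young libraries. Its log2 fold change was 2.63 (edgeR adjusted p = 0.523). *Ifitm3*, the most abundant interferon gene per kilobase, was not a DEG.

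The extracellular matrix (ECM) of vessels and meninges was examined through 54 genes of fibrillar and basement membrane ECM. Of these 53 were tested and 0 were DEGs in edgeR's quasi-likelihood test, with 13 at an unadjusted p below 0.05, all higher in old mice. The count depended on the fit: on the 6 female *bArKO* libraries alone edgeR called 5 and DESeq2 7 of the ECM genes, and edgeR on every gene with at least 1 count called 13, with *Dcn*, *Ogn*, *Ccn2* and *Fbln5* called in each of these fits. Over all genes these fits called 41 of 15045, 87 of 57186 and 232 of 34066. The median log2 fold change was 0.41, 44 of 53 values were positive, and in 22 genes all old libraries exceeded all young ones (8.83% of all genes). *Dcn* (decorin, a proteoglycan that binds collagen fibrils) was at 12.7, 16 and 17.9 CPM in young and 25.5, 25.9 and 29.0 CPM in old mice. *Ogn* (osteoglycin, of the same family) was at 5.99, 7.83 and 7.93 CPM in young and 12.8, 13.6 and 17 CPM in old mice. Neither gene's groups overlapped, but with log2 fold changes of 0.80 and 1.00 neither was a DEG (edgeR adjusted p = 0.662 and 0.618). The matricellular factor *Ccn2* was at 5.70, 5.11 and 7.69 CPM in young and 12.1, 10.9 and 13.5 CPM in old mice (log2 fold change 0.99, edgeR adjusted p = 0.738). The chains of type I collagen, *Col1a1* and *Col1a2*, had log2 fold changes of 0.54 and 0.67 (edgeR adjusted p = 0.830 and 0.821). That of *Col1a1* ran from 0.27 to 0.77 over the alternative fits. *Col1a1* was at 5.47, 9.46 and 11.3 CPM in young and 10.9, 11 and 15.7 CPM in old mice, so its groups overlapped, unlike those of *Col1a2*. *Fbln5*, of elastic fibres, had the smallest unadjusted p of the list (log2 fold change 1.38, edgeR adjusted p = 0.261). The leptomeningeal fibroblast list, whose values were likewise mostly positive, had all 22 members tested, 0 DEGs (7 at an unadjusted p below 0.05, and 1 DEG, *Apod*, without old replicate 3) and a median log2 fold change of 0.75. It shares 9 genes with the ECM list, among them *Dcn*, *Ogn*, *Col1a1* and *Col1a2*, and without these the other 44 ECM genes had a median of 0.37. How far the amount of meninges in each sample entered the ECM values was not tested. In the list of perineuronal and neural ECM, by contrast, 10 of 23 tested values (25 members) were positive, 0 were DEGs (1 higher and 3 lower at an unadjusted p below 0.05) and the median was -0.04 (0.00 without old replicate 1, -0.02 without old replicate 2, -0.01 and -0.02 without young replicates 1 and 2). The lectican *Ncan* was at 256, 263 and 271 CPM in young and 198, 220 and 219 CPM in old mice (log2 fold change -0.31, edgeR adjusted p = 0.243), and *Acan*, of perineuronal nets, had -0.76 (edgeR adjusted p = 0.448).

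*Klk6* was the 1 DEG among 31 tested genes of myelin and oligodendrocytes (32 members, against 0.14% of all genes), whose median log2 fold change was 0.30. The count was 2 without old replicate 3 and 0 in edgeR without any other library, old replicate 2 included. *Klk6*, a protease of mature oligodendrocytes, was at 0.974, 0.761 and 0.488 CPM in young and 3.34, 6.51 and 3.23 CPM in old mice. The groups did not overlap, and the log2 fold change of 2.48 (edgeR adjusted p = 0.0415, standard error 0.50) rested on 4 to 13 counts in young mice and was 2.07 without old replicate 2 (edgeR adjusted p = 0.283). The lipocalin *Apod* was at 150, 152 and 162 CPM in young and 300, 312 and 248 CPM in old mice. It fell just outside the thresholds (log2 fold change 0.89, edgeR adjusted p = 0.0709), and was called without old replicate 3. The iron carrier *Trf* had 0.61 (edgeR adjusted p = 0.372). Myelin basic protein (*Mbp*), the most abundant member, was at 4690, 4041 and 3363 CPM in young and 5792, 5909 and 3736 CPM in old mice, and its groups overlapped. In the 12 genes of oligodendrocyte precursors, all tested, 0 were DEGs, 2 had an unadjusted p below 0.05 and the median was -0.05 (-0.03 without young replicate 2 to -0.11 without old replicate 3). *Gpr17*, of cells about to become oligodendrocytes, was at 57.0, 49.0 and 56.1 CPM in young and 37.2, 33.8 and 30.8 CPM in old mice. Every old library lay below every young one, without a call (log2 fold change -0.67, edgeR adjusted p = 0.141).

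Genes of B cells, T cells and neutrophils were mostly below the filter on low counts. That filter asks for enough counts in only as many libraries as a group holds. The few members kept may have passed through libraries where they were high, so their medians test nothing. Of 13 B and plasma cell genes 3 were tested and 0 were DEGs, with all 3 at an unadjusted p below 0.05 and a median log2 fold change of 1.86. The antibody light chain *Igkc* was at 0.674, 0 and 0.732 CPM in young and 4.98, 10.3 and 4.30 CPM in old mice. The groups did not overlap, and at 0 to 9 counts in young mice the log2 fold change of 3.71 was not called (edgeR adjusted p = 0.275). The heavy chain *Ighm* had 0.71 (edgeR adjusted p = 0.487). Of 16 T and NK cell genes 3 were tested, 0 were DEGs (1 higher and 1 lower at an unadjusted p below 0.05, and 1 DEG without old replicate 3) and the median was 0.84. The defining T cell gene *Cd3e* had 0 counts in all 3 young and 1, 3 and 3 counts in old libraries. Of 10 neutrophil and monocyte genes 3 were tested, 0 were DEGs (2 at an unadjusted p below 0.05) and the median was 1.39 (0.74 without old replicate 1). Border macrophages had 8 of 10 genes tested and a median of 0.57 (0.28 without old replicate 3), and red blood cells 7 of 8 and a median of 0.08 (-0.10 without young replicate 1 and 0.35 without young replicate 3), each with 0 DEGs in edgeR and 0 genes at an unadjusted p below 0.05. Among vessel genes, 18 of endothelium had a median of 0.16 (3 at an unadjusted p below 0.05) and 14 of mural cells a median of 0.10 (2 at an unadjusted p below 0.05, and 0.24 without old replicate 2 or 0.23 without young replicate 3), all tested and with 0 DEGs in edgeR. Of 10 ependymal genes 9 were tested, with 0 DEGs and 0 at an unadjusted p below 0.05, and the median was 0.19, with -0.28 without old replicate 2, 0.35 without old replicate 1 and 0.41 without old replicate 3.

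The 4 DEGs outside the lists were 2 genes of known function and 2 transcripts of unknown function. *Anxa5* (annexin A5, which binds phosphatidylserine on dying cells) was at 49.2, 46.4 and 50.4 CPM in young and 76.8, 71.3 and 62.3 CPM in old mice, a log2 fold change of 0.53 (edgeR adjusted p = 0.0290). *Lsp1*, an actin-binding protein of leukocytes, was at 2.7, 3.26 and 3.05 CPM in young and 7.63, 5.28 and 5.76 CPM in old mice, a log2 fold change of 1.07 (edgeR adjusted p = 0.0290). ENSMUSG00000095041, an identifier absent from the annotation used, was at 35.1, 51.4 and 56.9 CPM in young and 89.5, 121 and 110 CPM in old mice. Its log2 fold change was 1.17 (edgeR adjusted p = 0.000974, standard error 0.16). The 1 lower DEG, the long noncoding RNA *9630013A20Rik* (ENSMUSG00000115529, chr14:84696079-84713864 of GRCm39, minus strand), is known from newly formed oligodendrocytes. It was at 1.95, 2.39 and 1.47 CPM in young and 0.583, 0.536 and 0.384 CPM in old mice. The groups did not overlap, and the log2 fold change was -1.91 (edgeR adjusted p = 0.00602, standard error 0.31), from 12 to 26 counts in young and 5 to 11 in old libraries. Its call was lost without old replicate 1 (edgeR adjusted p = 0.0602) and without young replicate 2 (edgeR adjusted p = 0.0616). The gene lies across *Pcdh17* on the other strand (911 to 1756 counts), and how reads of the pair were assigned was not tested.

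Of 37 postsynaptic genes, all tested, 35 had negative values, with a median log2 fold change of -0.19, and in 12 all old libraries lay below all young ones (7.32% of all genes). In edgeR's quasi-likelihood test 0 were DEGs and 11 had an unadjusted p below 0.05, 10 of them lower and 1 higher in old mice. *Gria1*, an AMPA receptor subunit, was at 1076, 1189 and 1182 CPM in young and 881, 925 and 1032 CPM in old mice, without overlap (log2 fold change -0.28, edgeR adjusted p = 0.372). *Camk2a*, the most abundant member, had -0.22 (edgeR adjusted p = 0.648). Of 28 presynaptic genes, all tested, 26 had negative values, the median was -0.14 (-0.09 without old replicate 1), 0 were DEGs in edgeR and 3 had an unadjusted p below 0.05. Markers of hippocampal principal neurons had 19 of 20 negative values, a median of -0.15 (-0.09 without young replicate 3), 0 DEGs in edgeR and 2 at an unadjusted p below 0.05. Those of GABAergic interneurons had 10 of 14 negative values, a median of -0.05 (0.00 without young replicate 2 and -0.12 without old replicate 3), 0 DEGs in edgeR and 1 at an unadjusted p below 0.05. Fold changes of this size lie below the threshold of 0.5 that a DEG had to exceed. That threshold removed no gene, since 23 genes were called without it too. The postsynaptic genes summed to 20400, 19480 and 19930 CPM in young and 16450, 17880 and 17380 CPM in old mice, and fewer neurons and less RNA per neuron cannot be told apart.

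Genes that follow neuronal activity, stress hormones and cell division were described in the same way. The 25 immediate early genes, all tested, had a median log2 fold change of -0.30 with 23 negative values, 0 DEGs in edgeR and 6 lower and 1 higher at an unadjusted p below 0.05. *Sik1*, a kinase gene induced by cAMP signals, was at 14, 22 and 24.5 CPM in young and 11.3, 10.3 and 9.22 CPM in old mice. Its groups did not overlap, and at a log2 fold change of -0.95 it fell just outside the thresholds (edgeR adjusted p = 0.0772). Without young replicate 1 it was called, as the 1 DEG of the list (log2 fold change -1.17, edgeR adjusted p = 0.0319). *Arc*, the most abundant of them, was at 305, 407 and 373 CPM in young and 397, 218 and 170 CPM in old mice, and its groups overlapped. The 17 glucocorticoid-responsive genes, all tested, had a median of -0.19 (-0.10 without young replicate 1), 0 DEGs in edgeR and 4 at an unadjusted p below 0.05. The kinase *Sgk1*, also an oligodendrocyte gene, was at 151, 90.8 and 91.5 CPM in young and 77.2, 70.2 and 56.4 CPM in old mice (log2 fold change -0.71, edgeR adjusted p = 0.378). Its log2 fold change ran from -0.84 to -0.42 over the alternative fits. Of 22 neurogenesis genes 19 were tested, 0 were DEGs in edgeR, 4 had an unadjusted p below 0.05 (3 lower, 1 higher) and the median was -0.11 (-0.21 without old replicate 3). *Top2a*, of dividing cells, was at 2.25, 2.17 and 2.08 CPM in young and 0.636, 1.07 and 0.538 CPM in old mice, and *Dcx*, of immature neurons, at 13.1, 12.2 and 8.79 CPM and 8.42, 8.19 and 8.15 CPM. In both genes every old library lay below every young one, and neither was called (log2 fold changes -1.54 and -0.47, edgeR adjusted p = 0.157 and 0.650). Of 15 cell senescence genes 12 were tested, with 0 DEGs in edgeR, 0 at an unadjusted p below 0.05 and a median of 0.08 (0.05 and 0.03 without old replicates 1 and 3, 0.04 without young replicate 1), and *Cdkn2a* was below the filter. Habenula and thalamus had 18 of 19 genes tested with a median of 0.32 (2 higher and 1 lower at an unadjusted p below 0.05) and striatum all 9 with a median of 0.13 (1 lower at an unadjusted p below 0.05), both with 0 DEGs in edgeR. The habenula and thalamus median was 0.17 without old replicate 3, and 0.16, 0.07 and 0.55 without young replicates 1, 2 and 3. The striatum median was 0.26 without old replicate 1 and -0.03 without old replicate 2. Among the lists without a DEG in edgeR, DESeq2 on all 24 libraries (43 of 57186 genes called) called 1 gene each of MHC class I, immediate early, leptomeningeal and oligodendrocyte precursor genes besides the pineal genes above, and 0 in every other. On the 6 female *bArKO* libraries alone, edgeR and DESeq2 called 41 of 15045 and 87 of 57186 genes. Among them were 5 and 7 ECM, 3 and 5 leptomeningeal, 2 and 2 B and plasma cell, and 1 and 3 MHC class I genes. Both called 1 each of oligodendrocyte precursor, perineuronal ECM and postsynaptic genes. DESeq2 alone called 3 immediate early, 2 interferon and 2 pineal genes there, and 1 each of T and NK cell, endothelium and habenula and thalamus genes. With every gene of at least 1 count, edgeR called 232 of 34066 genes, among them 13 ECM, 10 pineal, 10 leptomeningeal and 8 choroid plexus genes. It also called 5 interferon, 5 habenula and thalamus, 4 immediate early, and 3 each of MHC class I, neurogenesis, B and plasma cell, and neutrophil and monocyte genes. In that fit 1 each was called of oligodendrocyte precursor, perineuronal ECM, postsynaptic and glucocorticoid-responsive genes. The same held for GABAergic interneuron, endothelium, and T and NK cell genes.

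Receptors for sex steroids were read because the deletion removes a source of their ligand. Of 20 genes of sex steroid synthesis and receptors 14 were tested, 0 were DEGs in edgeR, 2 had an unadjusted p below 0.05 and the median log2 fold change was 0.04 (-0.01 without old replicate 1 to 0.08 without old replicate 3). The estrogen receptor *Esr1* was at 1.72, 1.41 and 2.69 CPM in young and 2.33, 2.30 and 2.38 CPM in old mice, with overlapping groups (log2 fold change 0.29, edgeR adjusted p = 0.875). Its log2 fold change ran from 0.12 to 0.56 over the alternative fits. *Esr2* had 0 to 3 counts in the 6 libraries and was not tested. The membrane estrogen receptor *Gper1* was at 1.95, 2.61 and 2.93 CPM in young and 3.55, 4.06 and 3.77 CPM in old mice. Its groups did not overlap, yet it was not a DEG (log2 fold change 0.62, edgeR adjusted p = 0.495). *Pgrmc1* was the most abundant member per kilobase, and *Cyp19a1*, *Cyp17a1*, *Hsd17b1*, *Hsd3b6* and *Sult1e1* were below the filter along with *Esr2*. For any single gene whose groups did not overlap, the exact two-sided permutation test over 3 and 3 mice gave p = 0.1, which is as low as this design can go.

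**Figure D4:**
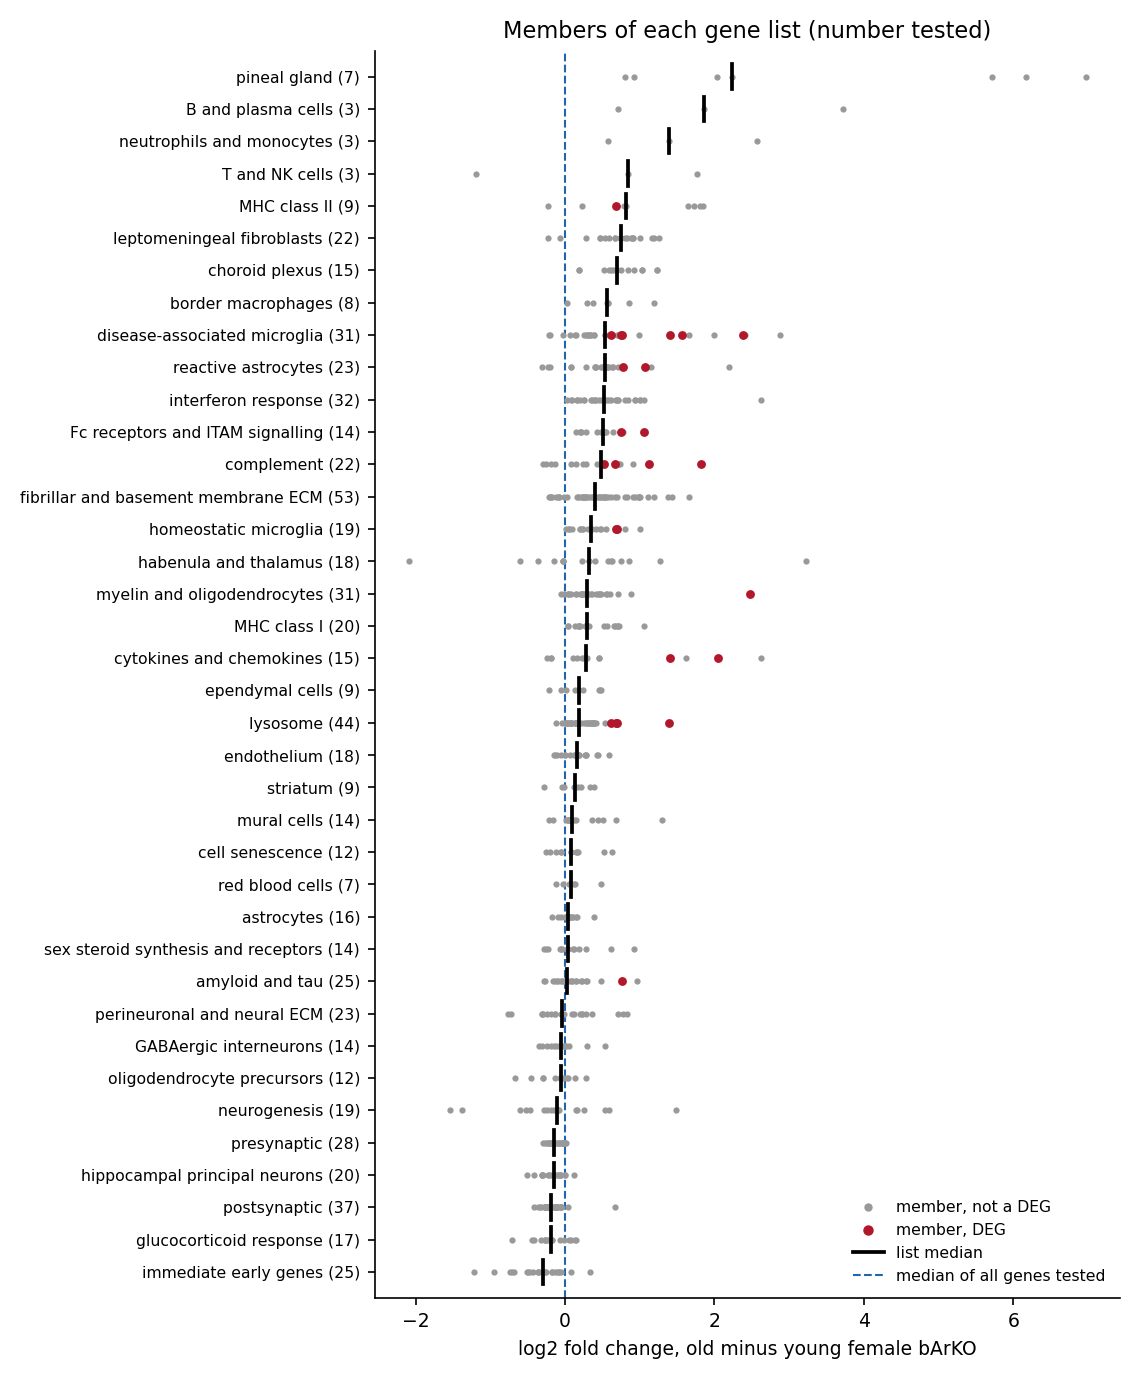
Log2 fold change of old over young female *bArKO* mice for the tested members of 38 gene lists (number tested in brackets), with DEGs in red, list medians as black bars and the median of all genes tested as a dashed blue line. Medians run from -0.30 for immediate early genes to 2.24 for pineal gland genes, and the DEGs lie in lists of complement, MHC class II, microglia, Fc receptor, lysosome, chemokine, reactive astrocyte, myelin and amyloid genes.

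The same DEGs were then read in the other old vs young comparisons, which used other mice. With edgeR's quasi-likelihood test in the same fit, old and young mice differed in 15 DEGs in female controls (0.0956%, of which higher 0.0701%, lower 0.0255%), 4 in male *bArKO* (0.0255%) and 3 in male controls (0.0191%). At an unadjusted p below 0.05 the order was another, with 2134 genes in female controls, 2055 in male *bArKO* and 1042 in male controls against 1179 in female *bArKO* mice. Of the 23 DEGs of female *bArKO* mice, 8 (34.8%) were among the 15 of female controls (53.3%): *C4b*, ENSMUSG00000095041, *Ctss*, *Gfap*, *9630013A20Rik*, *Tyrobp*, *Ctsz* and *C1qc*. In each male comparison *C4b* and ENSMUSG00000095041 were shared (8.7% of the 23). In female controls all 23 kept the sign they had in female *bArKO* mice, and likewise in both male groups. Since the DEGs were chosen in female *bArKO* mice, larger fold changes there are built in by the choice. *Lyz2* had log2 fold changes of 1.57 in female *bArKO*, 1.00 in female control, 0.71 in male *bArKO* and 0.79 in male control mice. *Clec7a* had 2.38, 2.13, 1.65 and 0.79 in that order. *Cxcl16* had 2.05, 0.31, 0.57 and 0.08, and *Slc11a1* 1.39, 0.31, 0.47 and 0.37. *Osmr* had 1.07 and 0.58 in the female groups, against 0.02 and 0.32 in the male groups.

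Whether age acted differently in female *bArKO* mice was tested with interaction terms. For the age by genotype interaction in females, edgeR's quasi-likelihood test called 0 of 15693 genes, with 611 at an unadjusted p below 0.05 and a lowest adjusted p of 0.605. For the age by sex interaction in *bArKO* mice it called 0, with 603 at an unadjusted p below 0.05 and a lowest adjusted p of 0.725. Both counts lay under the 784.65 due by chance. The second number in the column names stood in all 3 old female *bArKO* libraries, in old female control replicates 1 and 3 but not 2, and in no male library. Whatever it stands for thus cannot be told apart from the sex interaction either. DESeq2 on all 24 libraries called 1 gene for the first and 0 for the second interaction. That gene was growth hormone (*Gh*), at 4.08 CPM in old female *bArKO* replicate 1, 0.0769 CPM in replicate 3 and 0 in replicate 2 and in all 3 young female *bArKO* libraries. None of the 23 DEGs passed an interaction test in either of these fits. When every gene with at least 1 count was tested, edgeR called 49 genes for the genotype interaction, none of them among the 23 DEGs, and 69 for the sex interaction, *Osmr* and *Lyz2* among them. The DEGs had been chosen by values of female *bArKO* mice that enter both interaction terms, which favours small interaction p among them.

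**Figure D5:**
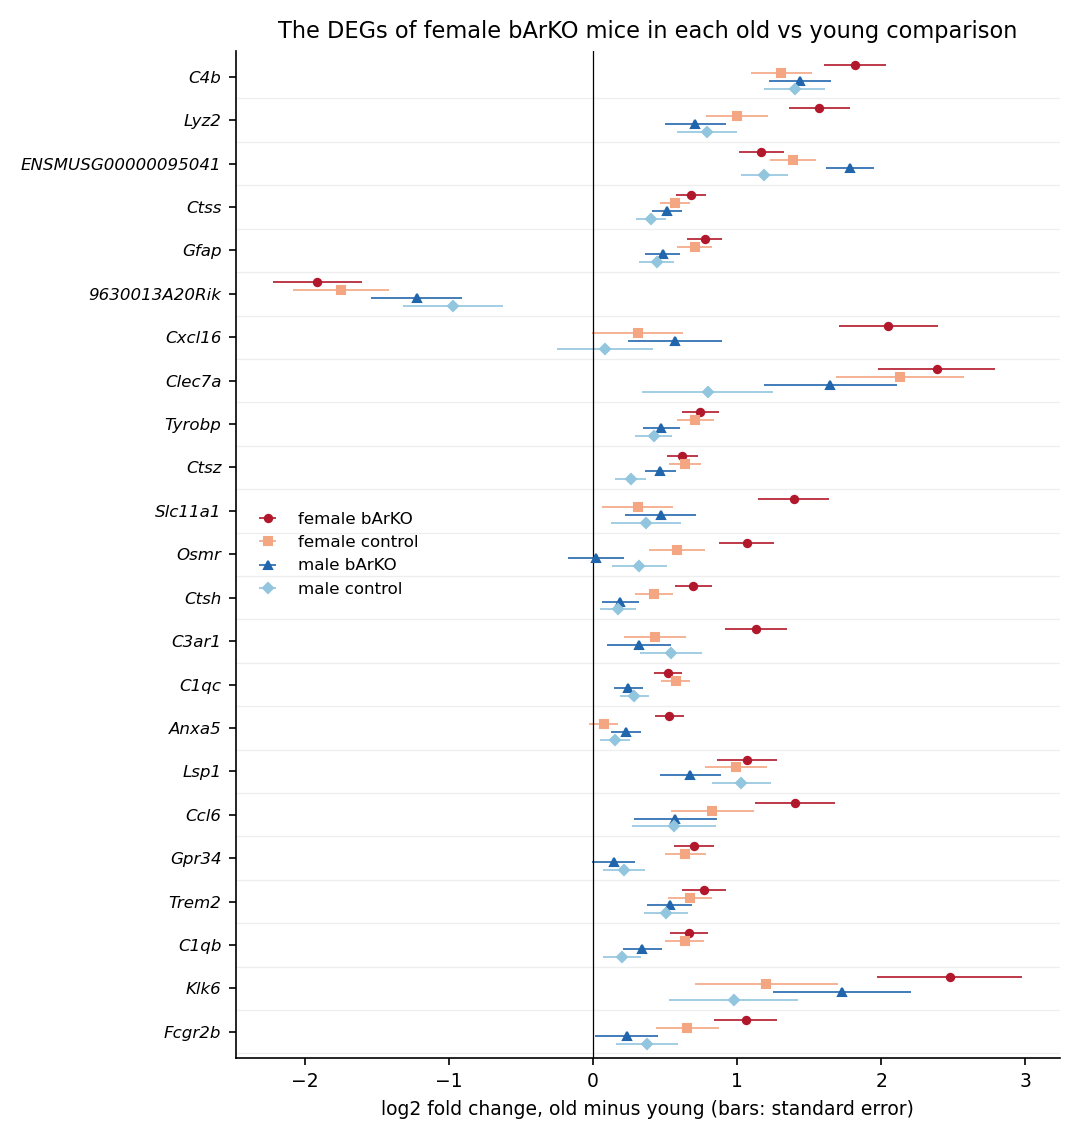
Log2 fold change of old over young mice with its standard error for the 23 DEGs of female *bArKO* mice (rows) in female *bArKO*, female control, male *bArKO* and male control mice. Points of *Cxcl16*, *Slc11a1* and *Osmr* lie farthest to the right in female *bArKO* mice, whereas those of *C4b*, *Gfap* and *Tyrobp* lie closer together, and the DEGs were chosen in female *bArKO* mice.

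For whole lists the medians of the 4 comparisons stood side by side as follows, with no test of the difference. The complement list had 0.48 in female *bArKO*, 0.27 in female control, 0.30 in male *bArKO* and 0.30 in male control mice, and the DAM list 0.54, 0.45, 0.25 and 0.20. The interferon list had 0.52, -0.28, -0.01 and 0.01, the fibrillar and basement membrane ECM list 0.41, -0.13, 0.09 and 0.04, and the leptomeningeal list 0.75, -0.36, -0.24 and 0.42. *Dcn* had log2 fold changes of 0.80, -0.44, -0.23 and -0.27 in that order, with an unadjusted edgeR p of 0.0397 for the genotype interaction that did not pass adjustment. It was called for that interaction, with *Ogn*, *Col1a1* and *Col1a2*, when every gene with at least 1 count was tested. The 49 genes called in that fit also held *Tph1* and other pineal genes, choroid plexus, habenula and thalamus genes, and the CA1 markers *Wfs1* and *Fibcd1*. Postsynaptic genes had medians of -0.19, -0.14, -0.13 and -0.06, and myelin genes of 0.30, 0.14, 0.61 and 0.21.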

How the data were processed

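The deposited values were raw counts per gene: the authors had trimmed reads with Trim Galore 0.6.10, aligned them to GRCm39 with STAR 2.7.9a and counted them with HTSeq 2.0.2, with default parameters where none were listed. The strand option and the annotation release were not listed. All 24 columns were used. Symbols came from GENCODE vM39 (56630 of 57186 identifiers). Counts were filtered with filterByExpr, scaled with TMM and fitted with edgeR 4.0.16 in R 4.3.3, with 1 coefficient per group and Benjamini-Hochberg adjustment over all genes tested. Same-numbered libraries were not treated as pairs, since their deviations correlated at 0.211, -0.111 and -0.0176.

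Genes named were the DEGs, label checks, estrogen receptors, genes the study measured again by qPCR, and from each of 38 gene lists up to 4 members by unadjusted p and the most abundant per kilobase. Further genes (*C1qa*, *C3*, *C4a*, *Itgax*, *Cst7*, *Cx3cr1*, *P2ry12*, *Spi1*, *Cd3e*, *Gh* and untested members) were chosen after their values were seen. Members and lists were chosen with earlier results of these data known. The lists held 738 different genes, 53 of them in more than 1 list, and 2 entries (*Fcrls* and *Tmem88b*) matched no gene.

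Alternatives were DESeq2 1.42.0, fits of fewer samples, RLE factors, other filters, no fold change threshold, thinned counts, a replicate block and leaving out each library. List medians without each library were added after the data were seen. A result on 1 named gene is not reported here.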

Additional observations from a re-analysis of the deposited data

How the results depend on the processing

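The comparison rests on 3 mice a side, and batch, dissection and the unexplained second number in the old column names cannot be told apart from age. How reads of genes across each other on opposite strands were assigned was not tested. Bulk values do not separate cell number from RNA per cell. The aromatase deletion itself could not be read at this depth. Old replicate 2 carried pineal and choroid plexus transcripts, and young replicate 3 choroid plexus transcripts.

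Against 23 DEGs (22 higher, 1 lower), DESeq2 on all 24 libraries gave 43 (39 higher, 4 lower) and on the 6 female *bArKO* libraries alone 87 (78 higher, 9 lower). edgeR gave 41 (40 higher, 1 lower, not *9630013A20Rik*) on these 6 libraries and 6 (6 higher, 0 lower) on the 12 female libraries. Testing every gene with at least 1 count gave 232 (215 higher, 17 lower), requiring at least 10 counts in every library gave 20 (20 higher, 0 lower), and counts thinned to the smallest total gave 12 (12 higher, 0 lower). RLE factors gave 24, and dropping the fold change threshold left 23. Leaving out each library in turn gave 3 to 50 DEGs (3 to 49 higher, 0 to 2 lower). With the replicate number as a block in a fit of the 6 libraries, 54 were called (50 higher, 4 lower), 19 of the 23 among them.

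The age by genotype interaction had 0 genes in edgeR, 1 in DESeq2 on all 24 libraries (*Gh*) and 49 when every gene with at least 1 count was tested. The age by sex interaction had 0 in edgeR, 0 in DESeq2 and 69 with every gene of at least 1 count, *Osmr* and *Lyz2* among them. The cause of these differences was not tested. All 23 DEGs kept their sign wherever they were tested, and *C4b*, *Lyz2* and ENSMUSG00000095041 were called in all 16 alternatives, *Ctss* in 13 and *Gfap* in 12, while *9630013A20Rik* was called in 8 of 15. The log2 fold change of *P2ry12* ran from -0.0226 without old replicate 1 to 0.16 without old replicate 3.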
